A study of Drosophila melanogaster with 3 samples.

Results

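The segmentation and Hox genes of Drosophila melanogaster were taken as 37 listed protein-coding genes, out of 13968 protein-coding genes on the chromosome arms in the Ensembl BDGP6 annotation. They comprised 4 maternal genes (bcd, cad, nos, osk), 9 gap genes (hb, Kr, kni, gt, tll, hkb, oc, ems, btd), 9 pair-rule genes (eve, ftz, h, odd, prd, run, slp1, slp2, opa), 7 segment polarity genes (en, inv, hh, ptc, ci, smo, gsb) and 8 Hox genes (lab, pb, Dfd, Scr, Antp, Ubx, abd-A, Abd-B). Of these, 35 were found by symbol, and nos and h were found as nanos and hry. Binding was read from chromatin immunoprecipitation and sequencing (ChIP-seq) of whole embryos aged 0 to 24 hours, of mixed sex, from 1 transgenic line in which CG4617 carries a C-terminal GFP. The antibody was raised against GFP. There were 3 biological replicates in 1 group, all carrying the fusion. No control group was analysed here, so members were set beside all protein-coding genes and no test between groups was made.

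These genes divide the embryo along its head-to-tail axis. Maternal products, laid down in the egg, set up gradients that switch on gap genes in broad domains. Gap proteins then place the stripes of pair-rule genes, segment polarity genes fix the borders of each segment through Hedgehog and Wingless signalling, and Hox genes give segments their identity. Most members encode DNA-binding transcription factors. The Hox genes lie in the Antennapedia and bithorax complexes, whose long introns and flanks hold many enhancers, Polycomb response elements and domain boundaries.

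The deposited lists give regions, each with a summit and a signal on the authors' own scale. The thresholded list (5558 peaks, signal 128.8 to 2038) was derived by the authors from the other lists with the irreproducible discovery rate procedure, and the pooled list (20051 regions, signal from 42.2), made from all 3 libraries together, adds weaker ones. Replicates 1, 2 and 3 listed 30000, 17251 and 14368 regions, background included. No read totals were at hand, so depth is unknown. Whole embryos of all stages were pooled, so a region bound in few cells and one bound weakly in many cannot be told apart. Ranks run from 1, the strongest, and ranks from lists of different lengths are not compared as levels. A summit was assigned to a gene as a promoter summit within 500 bp of any of its transcription start sites (TSSs), as a body summit elsewhere between its ends, or as an intergenic summit with its TSS nearest. Positions are in dm6, counted from 1.

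The sequences below belong to the 4 members with the strongest peaks, and are shown because the words they hold are compared with all other peaks further on. They are plus-strand reference sequence of build dm6, from RefSeq, 5′ to 3′, with capitals at the words found. For slp2 (chr2L:3832443-3832643) and bcd (chr3R:6759585-6759785) the 201 bp around the summit are given, with the Motif 1 core GGTCACAC in capitals for slp2 and GAGAG for bcd. For smo (chr2L:277282-277311) and nos (chr3R:19156839-19156868) the summit lies in an annotated 5′ untranslated region of a neighbouring gene, and 30 bases are given, with the reverse complement of the Motif 1 core in capitals for smo and CGATA for nos.
slp2: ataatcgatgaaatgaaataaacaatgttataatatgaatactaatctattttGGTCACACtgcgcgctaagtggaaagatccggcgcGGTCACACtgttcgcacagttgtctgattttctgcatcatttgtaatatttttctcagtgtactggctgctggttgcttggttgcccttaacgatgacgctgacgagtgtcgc
bcd: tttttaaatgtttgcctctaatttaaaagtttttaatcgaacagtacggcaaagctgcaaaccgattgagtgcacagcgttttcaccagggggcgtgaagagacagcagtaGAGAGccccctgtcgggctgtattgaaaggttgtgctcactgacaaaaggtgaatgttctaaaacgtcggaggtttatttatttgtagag
smo: ctccgcacccaGTGTGACCgtcgagcgcat
nos: cggtggctcgtgCGATAgttcgttttgtcg

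Few of these genes had a thresholded peak at the promoter, and those that did were maternal or part of Hedgehog reception. A promoter peak was found at 4 of the 37 members (bcd, nos, ptc and smo), 10.8%, where 37.1% of all protein-coding genes had one. At nos and smo the peaks were shared with a neighbouring gene on the other strand. The nos summit and the stronger smo summit lay nearer to the TSS of that neighbour. By group the count was 2 of 4 maternal, 0 of 9 gap, 0 of 9 pair-rule, 2 of 7 segment polarity and 0 of 8 Hox genes. A body peak was found at 3 members, 8.11%, against 4.66% of all genes, and an intergenic peak at 6 members, 16.2%, against 1.95%. Body and intergenic shares are not corrected for length. The sequence in which a summit would be assigned to a gene had a median of 21.3 kb in members and 3.67 kb in all genes. More such peaks can therefore fall to members by size alone. Per length of sequence away from promoters, the Poisson interval of the members held the value of all genes, as given further on. In any class, 11 of 37 members (29.7%) had a thresholded peak, against 40.7% of all genes, with 16 peaks among them, of which 5 were promoter, 4 body and 7 intergenic summits. The remaining 26 members had none. These shares describe a complete list of genes and were not tested.

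**Figure D1:**
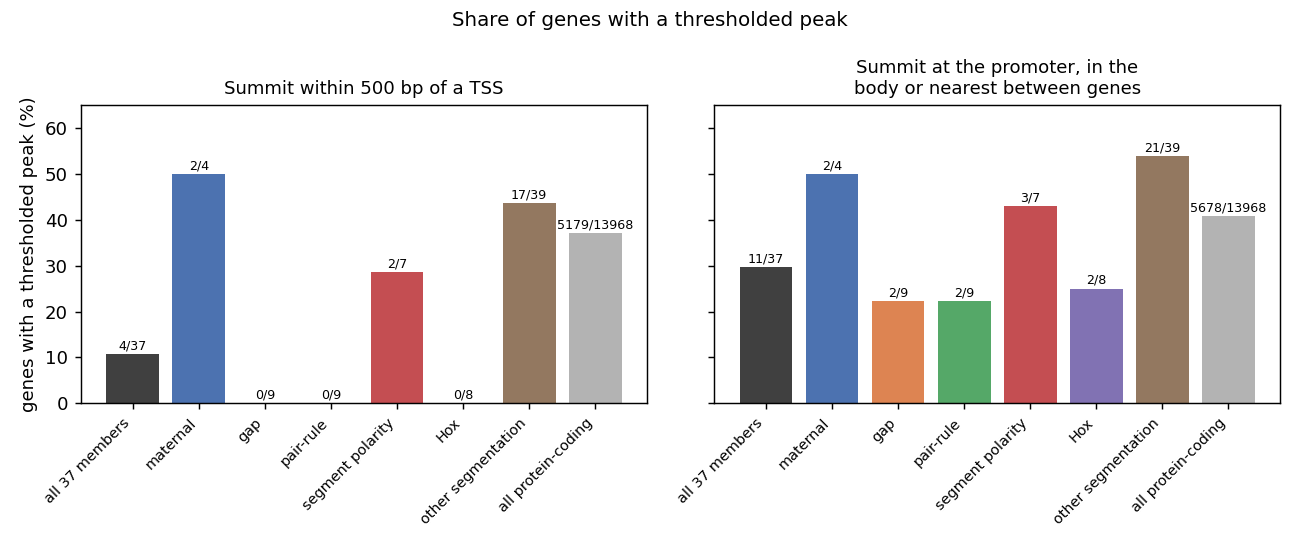
Percentage of genes with a thresholded peak, at the promoter (left) or in any class (right), for all 37 members, the 5 member groups, 39 other segmentation genes and all 13968 protein-coding genes, with counts above the bars. Promoter peaks were at 0 gap, 0 pair-rule and 0 Hox genes, against 37.1% of all genes.

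Among the maternal genes, bcd encodes the homeodomain gradient protein of the anterior pole and nos a translational repressor of the posterior pole. The bcd summit lay at 6759685 on 3R, 219 bp upstream of its only TSS, in a peak from 6759465 to 6759904 with pooled signal 234.1 and rank 2451. Its signals were 72.8, 100.8 and 59.8 in replicates 1, 2 and 3, at ranks 3963, 2017 and 2062, so it was among the strongest 5558 regions of all 3 replicates. No other protein-coding TSS lay within 500 bp of it. The nos summit lay at 19156848 on 3R, 390 bp upstream of the nos TSS but 36 bp from that of CG11779, a gene on the other strand whose nearest TSS is 221 bp away from that of nos. It had pooled signal 212.4 and rank 2941, and signals of 125.4, 49.7 and 37.55 in replicates 1, 2 and 3. The rank was 1468 in replicate 1 and 5641 in replicate 2, just past the strongest 5558. The homeobox gene cad had no thresholded peak. Its strongest pooled region (115.5, in the gene body) had signals of 65.7 and 39.7 in replicates 1 and 2 and was not listed in replicate 3. osk, which organises the germ plasm, had no region in the pooled list.

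No gap gene had a region within 500 bp of its TSS even in the pooled list, where 52.6% of all genes had one. The head gap genes oc and ems, both homeobox genes, had intergenic thresholded peaks. The oc summit lay 6078 bp upstream of its nearest TSS, at 8656759 on X, with pooled signal 197 (rank 3302) and signals of 49.3, 75.6 and 61.8 in replicates 1, 2 and 3. The 2 ems summits lay 13032 and 14005 bp downstream of its TSS, at 13914885 and 13915858 on 3R, with pooled signals 178.4 and 138.6. The first had 53.9, 71.9 and 51.02 and the second 29.6, 49.2 and 63.5 in replicates 1, 2 and 3, so the order of the pair was turned round in replicate 3. The other gap genes had less. hb, Kr and kni each had a single pooled region with signal 42.6, 45.2 and 46.6, near the end of that list. hkb and btd had 3 pooled regions each, none above 49.6. gt and tll had no region in the pooled list or in any replicate list. In the whole list of replicate 1, Kr, kni, oc, ems and btd had weak promoter regions, with signals of 26.5, 36.0, 41.8, 28.96 and 20.6, and in replicate 3 kni had one of 18.4. In replicate 3, kni also had a region at rank 5092, among the strongest 5558, away from its promoter.

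The strongest peak of all 37 members lay between the pair-rule genes slp1 and slp2, neighbouring forkhead genes whose ends are 9.74 kb apart. Its summit, 3832543 on 2L, was 4297 bp upstream of the slp2 TSS, and the peak was narrow, 220 bp from 3832407 to 3832626, where the median thresholded peak was 440 bp wide. The pooled signal was 473.8, rank 346 of 5558 and rank 46 of the 1026 thresholded peaks that lay more than 500 bp from every TSS. Replicates 1, 2 and 3 gave 142.5, 181.9 and 147.7 at ranks 1023, 375 and 200, the best rank of any member peak in each replicate. As the sequence above shows, the window holds GGTCACAC at 47 and 12 bp before the summit, with 35 bp between the starts. This word was within 100 bp of 0.487% of summits away from promoters (5 of 1026), against 10.7% of promoter summits (486 of 4532), and the slp2 summit was the single one away from promoters with 2 copies. The comparison of copy numbers was chosen after the sequence had been seen. A weaker peak lay 4674 bp away, 2194 bp downstream of the slp1 TSS at 3827869, with pooled signal 145.9 and 41.3, 59.2 and 38.8 in replicates 1, 2 and 3.

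The other 7 pair-rule genes had no thresholded peak. The bHLH repressor gene h had 9 pooled regions, 7 of them intergenic, and the strongest (107.3) lay 20629 bp downstream of its nearest TSS. Its promoter held a weak region with summit 49 bp from the TSS and pooled signal 72.2, listed at 31.5 and 24.1 in replicates 1 and 2 and not in replicate 3. odd, a zinc-finger gene, had 4 pooled regions up to 110.7, and the homeobox gene ftz had 5 up to 117.5, all of them intergenic. eve, prd, run and opa had no pooled region, and eve none in any replicate list either.

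**Figure D2:**
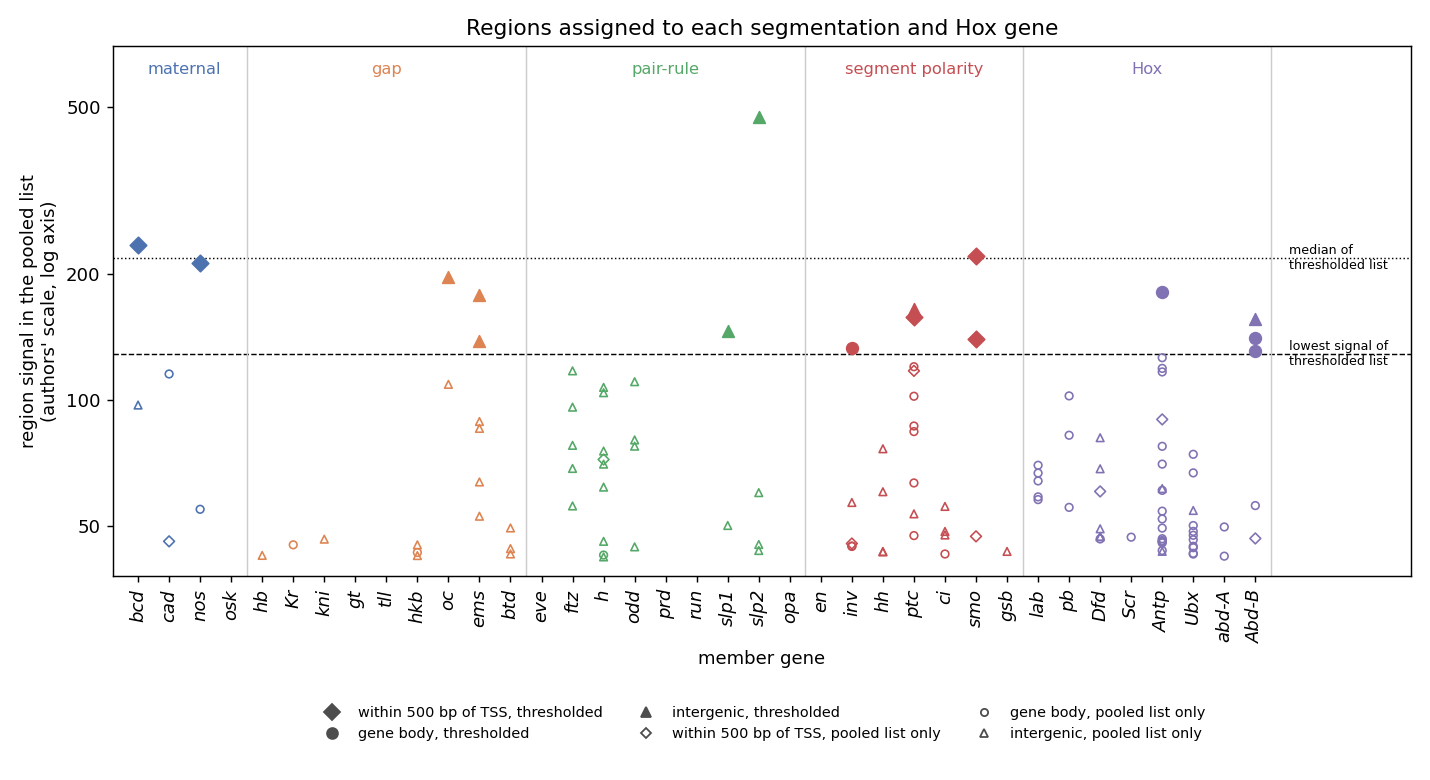
Signal in the pooled list (authors' scale, log axis) of every region assigned to each of the 37 members, by group. Filled symbols are thresholded peaks and open ones are in the pooled list only. The slp2 peak (473.8) stands above all others, and osk, gt, tll, eve, prd, run, opa and en have no symbol.

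Of the segment polarity genes, ptc and smo, which encode the Hedgehog receptor and the membrane protein that it restrains, had promoter peaks. The ptc summit lay at 8649652 on 2R, 3 bp from the only annotated TSS, with pooled signal 157.9 (rank 4441) and 68.0, 47.6 and 22.8 in replicates 1, 2 and 3. This summit was among the strongest regions of replicate 1 alone. An overlapping region of the pooled list, with summit 254 bp upstream and signal 117.5, was below the threshold. It had 52.7 in replicate 2, at rank 5279 and so among the strongest there, and 25.6 in replicate 3. Its summit was in no listed region of replicate 1. A second ptc peak 5275 bp upstream (8644374, signal 164.9) had 59.1, 60.7 and 61.1 in replicates 1, 2 and 3 and was among the strongest regions of all 3. With 8 pooled regions below the threshold, 6 of them in the gene body, ptc carried 10 in all. At smo, 2 overlapping peaks had summits 278 and 74 bp upstream of the TSS (277304 and 277508 on 2L) with pooled signals 221.2 and 140. The stronger had 138.3, 54.5 and 42.2 and the weaker had 89.2, 28.7 and 42.2 in replicates 1, 2 and 3, and in replicate 3 a single region held both summits. The TSS of CG17078, on the other strand, was closer to the stronger summit (92 bp) than that of smo. This window carried the DRE word TATCGATA 30 bp and the Motif 1 core 11 bp before the summit.

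inv, a homeobox gene paired with en, had a thresholded peak in an intron at 11500466 on 2R, 24758 bp from its nearest TSS, with pooled signal 133 and 33.4, 48.6 and 35.5 in replicates 1, 2 and 3. Its neighbour en had no pooled region. hh, which encodes the ligand, had 4 pooled regions, all intergenic and none above 76.6. ci, the transcription factor at the end of the pathway, had 4 up to 55.8. gsb, a paired-box gene, had 1, with signal 43.6.

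Hox genes had their peaks away from promoters and in 2 of 8 genes. Antp, an Antennapedia complex gene of the thorax, had a thresholded peak in an intron shared with the overlapping gene CG46458, at 6912492 on 3R, 20348 bp from its nearest TSS. Its pooled signal was 181.4 (rank 3753), and replicates 1, 2 and 3 gave 58.3, 60.6 and 53.6, among the strongest regions of each. Abd-B, the most posterior Hox gene, had 3 weak ones, in introns 1501 bp upstream and 1994 bp downstream of the nearest of its 6 TSSs (140.8 at 16970075 and 131 at 16958287) and 7975 bp beyond the end of the gene (155.8 at 16919237, inside the noncoding gene lncRNA:iab8). Replicates 1, 2 and 3 gave 41.5, 52.5 and 26.9 for the first, 46.95, 37.9 and 48.2 for the second and 45.6, 60.8 and 38.4 for the third. None of the 3 was among the strongest 5558 regions of replicate 1.

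All 8 Hox genes had at least 1 region in the pooled list, as did 64% of all protein-coding genes. Antp had 19 and Ubx, which specifies the posterior thorax, 11, with Ubx regions no stronger than 74.3. Some regions of each gene overlapped one another, and some summits were in no replicate list, so these are not counts of separate, replicated sites. Dfd, lab, pb, abd-A and Scr had 7, 5, 3, 2 and 1, with strongest signals of 81.4, 70, 102.4, 49.9 and 47.1. These genes are long, a median of 30.6 kb against 2.16 kb for all protein-coding genes, so more regions can fall in them. The whole Antennapedia complex, from lab to Antp (337.8 kb, 20 protein-coding genes), held 3 thresholded summits, at the bcd promoter, at the promoter of the neighbouring gene Ama and in Antp. This is 0.888 per 100 kb (95% Poisson interval 0.183 to 2.6), against 4.04 over all arms. The bithorax complex, from Ubx to Abd-B (315.6 kb, 6 protein-coding genes), held 6, or 1.90 per 100 kb (0.698 to 4.14), and 0 of the 6 were at a promoter, where 81.5% of all thresholded peaks were. The 4.04 over all arms is thus mostly promoter peaks, with 13968 protein-coding genes in 137500 kb. For all genes, peaks away from promoters numbered 0.839 per 100 kb of sequence outside promoter windows. That value lies inside the bithorax interval, though the sequence counted differs. In the pooled list the densities were 13.9 (10.2 to 18.5) in the Antennapedia complex and 11.4 (7.99 to 15.8) in the bithorax complex, against 14.6 over all arms, a value inside both intervals.

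Per length of sequence, the density of peaks was lower in members than in all genes when promoters were counted, and 1.14 against 0.839 per 100 kb when they were left out. The bases at which a summit would be assigned to a gene, called its territory, had a median of 21.3 kb in members and 3.67 kb in all protein-coding genes. Members had 1.56 thresholded peaks per 100 kb of territory (95% Poisson interval 0.892 to 2.53) and all genes 5.19 (5.07 to 5.3). Long territories hold fewer promoters per 100 kb. This density therefore falls with territory length, even at an equal share of promoters with a peak. How much of the gap came from length was not tested. A peak was counted once for each gene it was assigned to, and territories overlap. Over all genes this gave 7640 assignments from 5558 peaks, so the intervals of all genes are too narrow. With each peak counted once, the density over all arms was 4.04 per 100 kb. Outside 500 bp of every TSS, members had 11 peaks, or 1.14 per 100 kb (0.567 to 2.03), and all genes 0.839 (0.789 to 0.891). The interval of the members holds the value of all genes there, which does not show that the densities are alike. By group the density away from promoters was 1.66 for gap, 1.06 for pair-rule, 1.24 for segment polarity and 0.965 for Hox genes, on 2 to 4 peaks each with overlapping intervals, and maternal genes had 0 such peaks. In the pooled list, members had 114 regions away from promoters, 11.8 per 100 kb (9.70 to 14.1), and all genes 8.99 (8.82 to 9.15). The intervals cover counting error only.

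**Figure D3:**
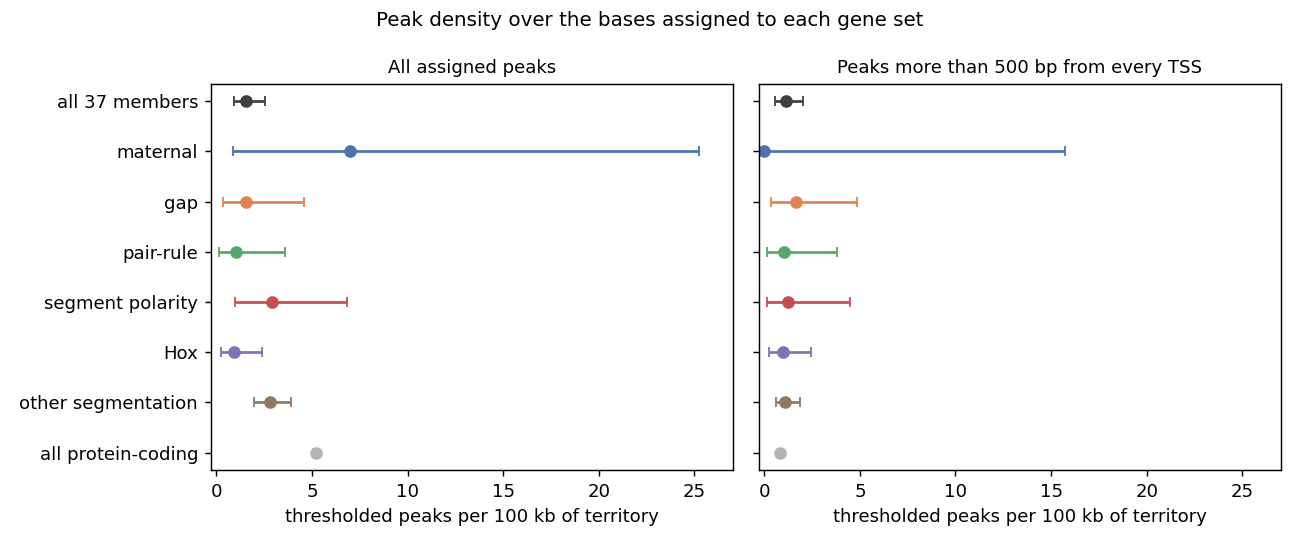
Thresholded peaks per 100 kb of territory for the 37 members, their 5 groups, the other segmentation genes and all protein-coding genes, counting all assigned peaks (left) or those more than 500 bp from every TSS (right). A peak counts once for each gene it is assigned to. Bars are 95% Poisson intervals, too narrow for all protein-coding genes because of repeated peaks. All members lie at 1.56 against 5.19 for all genes on the left, and at 1.14 against 0.839 on the right. On the left, longer territories lower the density, since they hold fewer promoters per 100 kb.

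Few members had a start region of the kind that most often carried a peak. A TSS of another gene on the opposite strand lay within 1000 bp upstream of 2 members (nos and smo), 5.41%, and of 36.2% of all protein-coding genes. Both had a promoter peak, as did 66.4% of all genes with such a neighbour. From 100 bp upstream to 50 bp downstream of the most upstream TSS, both strands were searched for words of known promoter factors. The DRE (TATCGATA), the Motif 1 core (GGTCACAC) and the Motif 7 core (CAGCNCTA), found in many housekeeping promoters, were present in 1, 0 and 0 of 37 members. Among all genes with a promoter peak the shares were 15.1%, 14.85% and 4.02%, and among genes without one 3.21%, 1.73% and 1.42%. The word CGATA, which overlaps the DRE and is bound by the boundary factor BEAF, was at 18.9% of members and 34.4% of all genes. The word GAGAG, of the GAGA factor, was at 20 of 37 members, 54.1%, and at 18.1% of all genes. In all, 35 of 37 members had neither such a neighbour nor the DRE, Motif 1 or Motif 7 words, and 2 of them (5.71%) had a promoter peak, where 15.5% of all genes of that kind did. A word match is a description of the letters and not of a bound site.

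**Figure D4:**
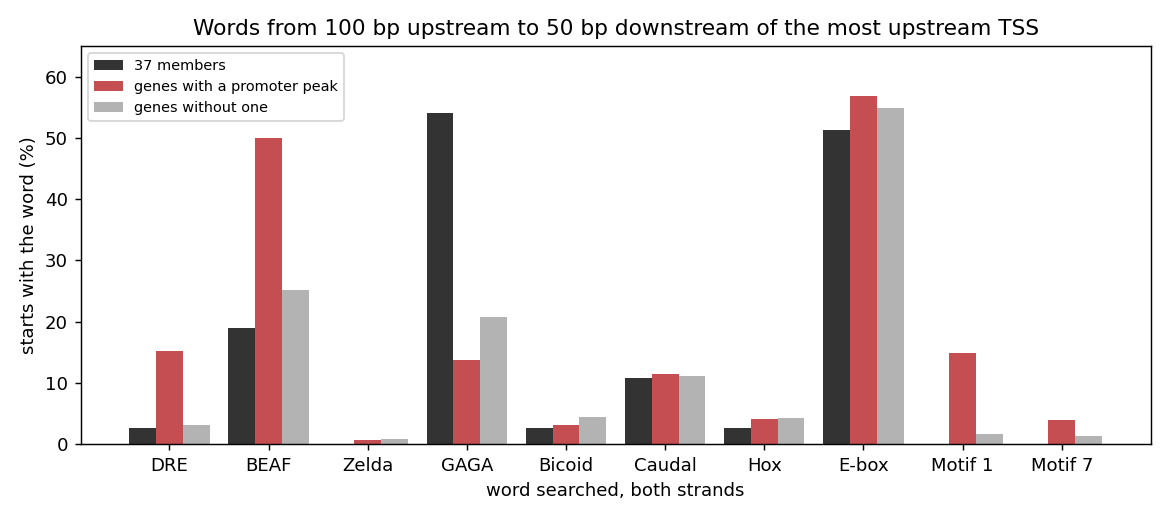
Percentage of start regions (100 bp upstream to 50 bp downstream of the most upstream TSS) with each of 10 words on either strand, for the 37 members, all genes with a thresholded promoter peak and all genes without one. The GAGA word is at 54.1% of members, and the Motif 1 and Motif 7 words are at 0 members.

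At the summits themselves, 201 bp windows of the 16 member peaks were searched for the same words. Motif 1 was at 2 (slp2 and smo) and the DRE at 1 (smo), against 8.83% and 7.67% of all thresholded summits. GAGAG was at 6 of 16 summits, 37.5%, against 19.6% of all, namely at bcd, at the ptc promoter, at both ems summits and at 2 of the 3 Abd-B summits. The word TTTATG, of the Caudal protein, was also at 6, against 18.6% of all. The Zelda word CAGGTAG was at 1 (inv), against 0.954%, the Bicoid word TAATCC at 1 (nos), against 5.88%, and the homeodomain word TTAATTA at 0, against 8.49%. CANNTG, the E-box, was at 62.5% of member summits and 63.9% of all. The Motif 7 core was at 0 and CGATA at 4, 25%, against 3.47% and 37.3%. Most of all thresholded peaks are at promoters, but 11 of the 16 member summits were away from them, and the shares differ between these classes. Away from promoters, CGATA was at 20.6%, GAGAG at 24.4% and TTTATG at 25.4% of all thresholded summits. At promoters the 3 shares were 41.1%, 18.5% and 17.0%.

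Of 39 other segmentation genes, 17 had a promoter peak, 43.6%, beside the 10.8% of the members and the 37.1% of all genes. They comprised 6 of 11 maternal genes, 8 of 12 Hedgehog and segment polarity genes, 1 of 6 gap and head genes (cnc), 1 of 6 odd-family genes and pair-rule partners (bowl) and 1 of 4 Hox cofactors and targets (exd). The strongest were bowl, a zinc-finger gene of the odd family (signal 485.1, summit 171 bp upstream), cos, which encodes a kinesin-like Hedgehog component (411.1, 197 bp upstream and shared with Dhx15), and tud, which encodes a germ plasm protein (354.3). Among the Hedgehog genes the kinase fu, Su(fu), the Hedgehog releaser disp and the co-receptors ihog and boi had one, and rasp, the Hedgehog acyltransferase, had no thresholded peak. The strongest promoter peaks of Su(fu), disp and boi were shared with a neighbouring gene, as at cos. Of the 39 genes, 12 (30.8%) had an opposite-strand TSS within 1000 bp upstream, against 2 of 37 members (5.41%). A promoter peak was at 10 of these 12. Without such a neighbour it was at 7 of 27 (25.9%), 2 of 35 members (5.71%) and 20.5% of all genes. Split by product, a division made after the values were seen, 1 of 32 members that encode DNA-binding transcription factors had a promoter peak (bcd) and 3 of 5 others did (nos, ptc and smo, but not osk or hh). The peaks of nos and smo were shared with a neighbouring gene. In the other segmentation genes the counts were 3 of 17 and 14 of 22. That list too was chosen with earlier results of these data known, so it is not an independent repeat of the split. Neither split was tested.

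The member peaks were weak within the thresholded list and uneven between replicates. Their median signal was 161.4, against 218.6 for the list, and 3 of 16 (slp2, bcd and smo) were among the stronger 2779 peaks. Peaks away from promoters, 11 of the 16, were weaker in the list as well. By class, the member medians were 212.4 at promoters and 155.8 away from them, against 228.4 and 184.6 in the list. Of the 11, 1 was among the stronger 2779, where 33.3% of all peaks away from promoters were, and 53.8% of promoter peaks. All 16 summits lay inside a listed region of all 3 replicates, as did 87.5% of the 5558. Among the strongest 5558 regions of each replicate, 5 of 16 summits were in all 3, against 61.4% of the list. Away from promoters it was 3 of 11 summits, against 50.8% of all such peaks. By replicate, 8, 10 and 14 of 16 were among the strongest in replicates 1, 2 and 3, against 84.3%, 90.1% and 79.2% of the list. For the 11 summits away from promoters the counts were 3, 8 and 10, against 61.2%, 86.5% and 92.1% of all 1026 such peaks, so replicate 1 had the lowest share of the 3 in both sets. Counted from each replicate alone, a promoter summit among the strongest regions was at 4, 3 and 3 members in replicates 1, 2 and 3, a mean of 3.33 ± 0.577 (SD, n = 3), where 37.7%, 36.4% and 33.7% of all genes had one. Any assigned summit was at 7, 9 and 16 members, a mean of 10.7 ± 4.73 (SD, n = 3), where the shares of all genes were 40.3%, 40% and 39.2%.

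**Figure D5:**
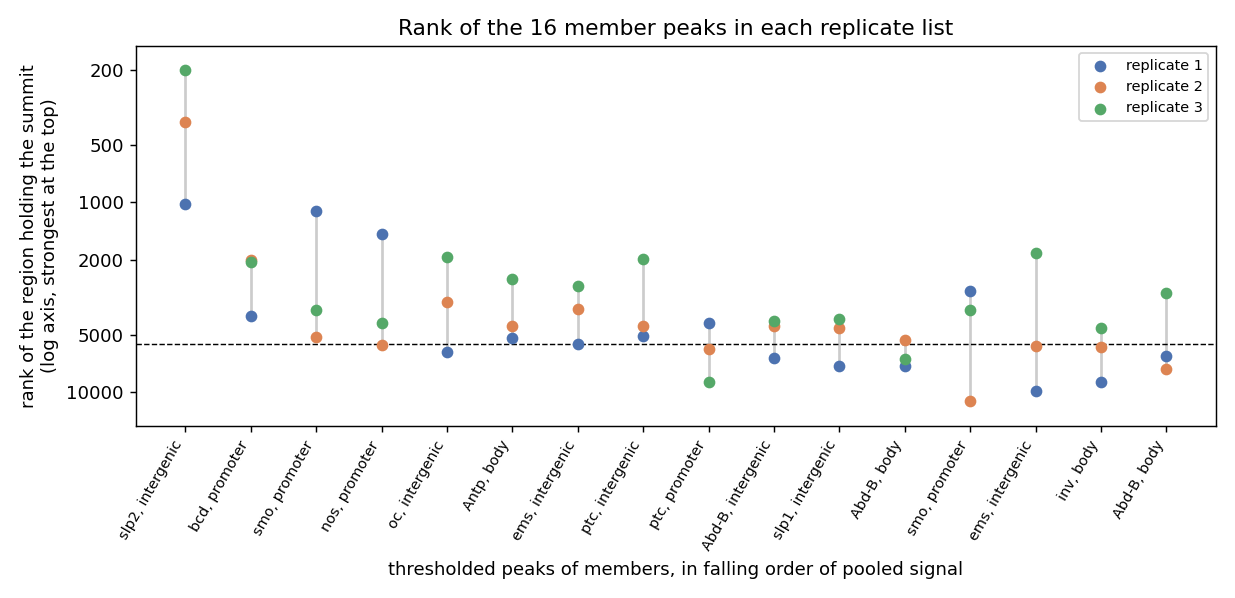
Rank, on a log axis with the strongest at the top, of the region that holds each of the 16 member summits in replicates 1, 2 and 3, in falling order of pooled signal. The dashed line marks rank 5558. The slp2 peak ranks 1023, 375 and 200, and several intergenic and body summits lie below the line in replicate 1.

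Below the threshold, 111 further pooled regions were assigned to members, with signals from 42.3 to 126.3 and a median of 54.4, against 57.1 for all pooled regions outside the thresholded list. Of these, 8 were promoter, 52 body and 51 intergenic summits, and 27 lay in a listed region of all 3 replicates, 24.3% against 20.5% of all such regions. The 3 strongest in or at members were in Antp (126.3), ptc (120.2) and Antp (119.1). With them, 10 members had a promoter summit in the pooled list, where 52.6% of all genes had one, and 29 (78.4%) had a summit of any class, where 64% did, the other way round from the thresholded list. Whole replicate lists, with their weak regions, had a promoter summit at 26, 8 and 9 members in replicates 1, 2 and 3, where 59.2%, 50.2% and 44.6% of all genes had one. In replicate 1 the share of members, 70.3%, was above that of all genes. There, 22 of the 37 members had weak promoter regions only, where 21.5% of all genes did, with signals from 11.5 to 49.9 and a median of 20.1, beside 19.6 for that whole list. The 6 members added at promoters by the pooled list were cad, h, inv, Dfd, Antp and Abd-B, with signals from 45.5 to 90.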

How the data were processed

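The measurement was anti-GFP ChIP-seq of CG4617-eGFP in whole embryos, with sonicated fragments of 200 to 800 bp and 3 biological replicates in 1 group, per the labels. The deposited region lists carry a signal per region on the authors' own scale, which is not stated. Per the deposited listing text, each replicate list and the pooled list were made against a control alignment, and the thresholded list was derived from them. An aligner, a peak caller or a threshold was not given in the sources used here. Replicates are separate biosamples per the labels, and depth is unknown.

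From the dm6 lists, summits were assigned to genes of Ensembl release 115 as promoter, body or intergenic with Python 3.11.15 and numpy 2.4.6, and exact Poisson intervals (95%, counting error only) came from scipy 1.17.1. The assignment was tested on simulated positions. The strongest regions of a replicate are its top 5558. Words were searched within 100 bp of summits. All 37 members are named, those with a thresholded peak in full; of other genes, the rule was those at a member summit and the 3 of the other segmentation list with the strongest promoter peaks. Outside that rule, Ama, Dhx15, Glut3, MSAmiP, CG31275, cnc, exd, fu, Su(fu), disp, ihog, boi and rasp were named after their values were seen. Sequences were limited to members outside arm 2R. The members and lists were chosen with earlier results of these data known. Other windows, lists, TSS choices and replicate support were tried. The dm3 lists were not used.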

Additional observations from a re-analysis of the deposited data

How the results depend on the processing

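The count of 4 members with a promoter peak was 2 in the stronger 2779 peaks (bcd and smo, where 23.5% of all genes had one), 10 in the whole pooled list (52.6%) and 2 with support among the strongest regions of all 3 replicates (26.5%). With support from the other 2 replicates only, it was 2 without replicate 1, 3 without replicate 2 and 2 without replicate 3, where 28.5%, 28.2% and 32.1% of all genes had one. In each of these lists the share of members was below that of all genes, but in the whole list of replicate 1 it was above, 70.3% against 59.2%. The count of 11 members with any peak was 3 in the stronger peaks (25.4% of all genes), 5 with support of all 3 replicates (29%) and 5 to 9 leaving out a replicate (9, 6 and 5 without replicates 1, 2 and 3, against 31.9%, 30.8% and 34.6% of all genes). In the pooled list it was 29, and the direction turned, with 78.4% of members against 64% of all genes. Members have longer territories, a median of 21.3 kb against 3.67 kb, so more regions of any class can be assigned to them. The 16 assigned peaks became 3, 5 with support of all 3 replicates, and 5 to 9 leaving out a replicate (9, 7 and 5 without replicates 1, 2 and 3). The density of 1.56 per 100 kb was 0.293 in the stronger peaks, 12.4 in the pooled list and 0.488 to 0.878 leaving out a replicate (0.878, 0.683 and 0.488 without replicates 1, 2 and 3). The mean of 3.33 members per replicate was 14.3 with whole replicate lists. The 10 members in the pooled list were 6 with a window of 250 bp. These lists differ in length by construction. The promoter count was 3 or 4 with a window of 250 or 1000 bp, the most upstream TSS or the nearest TSS, and 250 bp and the nearest TSS each left out nos. The count with any peak was 10 or 11 under both windows and with all gene types annotated. No paired analysis was possible because there is 1 group. Depth, and so what was too weak to be listed, is unknown.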

Other observations

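The bithorax complex held 3 thresholded peaks that the assignment gave to genes outside the 37. The strongest, with signal 364.3 (rank 875), had its summit at 16798890 on 3R, between Ubx and abd-A, with the TSS of Glut3 nearest. The second, with signal 172.1 at 16869399, lay in the body of MSAmiP between abd-A and Abd-B, and the third, with signal 164.3 at 16748750, had the TSS of CG31275 nearest. All 3 were stronger than the 3 peaks of Abd-B, which had 155.8, 140.8 and 131. In the Antennapedia complex the promoter of Ama, an immunoglobulin-domain gene beside bcd, had a peak of 249.1, above the 234.1 of bcd.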
